A study of Mus musculus with 6 samples.

Results

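The nuclear genes for the subunits of oxidative phosphorylation were measured in the mouse suprachiasmatic nucleus (SCN) immediately after a 30-minute light pulse and after a sham light pulse. The members were chosen by name, as all probe sets whose single gene symbol begins with Nduf followed by a, b, c, s or v (complex I), is Sdha, Sdhb, Sdhc or Sdhd (complex II), or begins with Uqcr (complex III), Cox4 to Cox8 (complex IV) or Atp5 (complex V). This rule found 156 of the 22626 probe sets, belonging to 84 of the 12393 genes named by a single symbol. Of these genes, 78 encode subunits and 6 encode associated factors that share the names: the complex I assembly factors Ndufaf1, Ndufaf3, Ndufaf4, Ndufaf5 and Ndufaf7, and Cox7a2l, which joins respiratory complexes into supercomplexes. A further 8 probe sets carry several symbols of which at least 1 fits the rule, and these were not used here. The rule reads names and no signal.

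Oxidative phosphorylation takes place in the inner mitochondrial membrane. Complex I oxidises NADH and complex II oxidises succinate, and both pass electrons by way of ubiquinone to complex III, then by cytochrome c to complex IV, where oxygen is reduced. Complexes I, III and IV pump protons, and complex V, the ATP synthase, uses the returning protons to make ATP. Most subunits are encoded in the nucleus and a few in the mitochondrial genome. In neurons such as those of the SCN, which fire with a daily rhythm, much of the ATP is spent on restoring ion gradients.

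Adult male C57BL/6 mice, aged 2-4 months and kept in a 14:10 light/dark cycle, received either light of 2400 lux for 30 minutes or a sham (dark) pulse, both beginning 1 hour after lights off, and the tissue was taken at 1.5 hours after lights off. The mice carried no transgene or other agent that the labels name. The SCN was cut out of 12 µm sections by laser capture microscopy, 6 sections a mouse, and tissue of 3 mice was pooled for each array, 18 sections in all. There were 3 arrays of each group (Affymetrix Mouse 430A 2.0), each started from 1 ng of total RNA that went through 2 rounds of linear amplification. A sample's short description speaks of an animal, whereas the protocol speaks of pools. Nothing read here says whether any pools shared mice or a processing day, so a p-value measures the spread between these pools.

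The signal is the deposited intensity of a probe set in arbitrary units on a linear scale. Arrays of the same group correlated at 0.893 to 0.935 in log2 signal, and arrays of different groups at 0.886 to 0.934. All 14 genes listed as SCN neuron markers passed the filter on low signals described below, and their summed signal was 119737 on light pulse array 3 and between 84491 and 97205 on the other 5. The excess lay mostly in Vip, which read between 30271 and 46397 on the other 5 and 64589 on light pulse array 3. That array differed in another respect, since the summed signal of 10 choroid plexus markers was 111102 on it and between 236 and 599 on the others, nearly all of it from Ttr, the only 1 of the 10 to pass the filter. Light pulse array 3 also had the lowest median correlation with the others, 0.899. Values without it are given where they bear on a result, and the part of choroid plexus tissue in any result was not tested. In pooled tissue of this kind, fewer cells of a type and less RNA per cell cannot be told apart.

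Most members were among the brightest probe sets. A probe set was kept when its third-highest signal over the 6 arrays was at least 118.2, which retained 140 of the 156 members, from 79 of the 84 genes. Of the 16 below this level, 5 were the only probe sets of their genes (Cox4i2, Cox6a2, Cox6b2, Cox7a1 and Cox8b), while the others belong to genes with another probe set that was kept. The kept members numbered 65 of 68 for complex I, 7 of 7 for complex II, 12 of 15 for complex III, 20 of 29 for complex IV, 27 of 28 for complex V and 9 of 9 for the associated factors. In all, 39 of the 140 kept members (27.9%) had a mean signal of 10000 or more, against 4.33% of all kept probe sets. A further 61 lay between 1000 and 10000, and 40 lay below 1000. All 156 members together gave between 4.81% and 5.39% of an array's summed signal.

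Ranked within each array, complex IV stood highest. A kept probe set's percentile is its place among all probe sets on the same array, and the median for complex IV was between 96.0 and 96.9 over the 6 arrays. Complex I followed, between 92.7 and 94.2 by its median. Complexes V (89.9 to 92.2) and III (88.9 to 90.5) overlapped and changed places on sham array 2 and light pulse array 1. Complex II was lowest, at 73.0 to 77.9, close to the median of about 77.1 for all kept probe sets. For comparison, the cytosolic ribosomal proteins had medians between 95.6 and 97.2 and the proteasome subunits between 87.9 and 90.6.

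**Figure D1:**
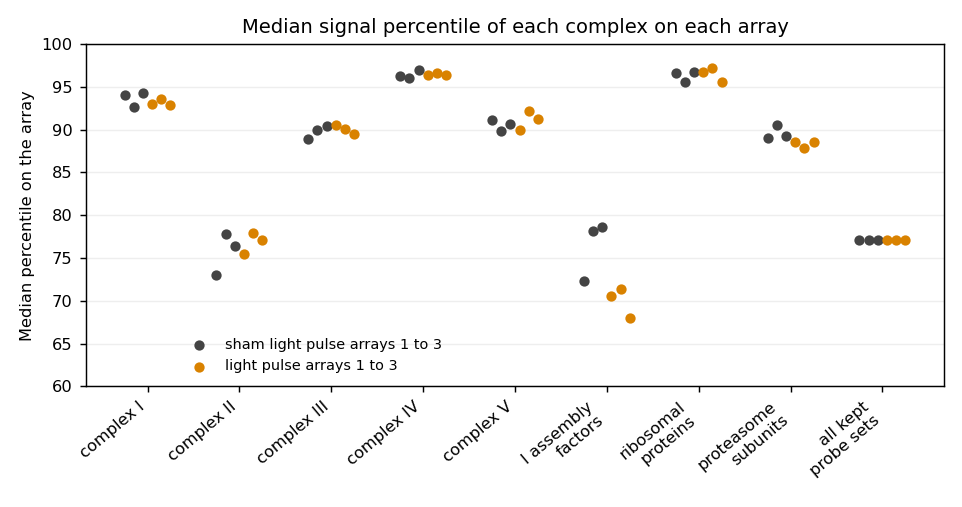
Median percentile of signal for the kept probe sets of each complex, of the complex I assembly factors, of ribosomal proteins, of proteasome subunits and of all kept probe sets (horizontal axis), on each of the 3 sham light pulse arrays (grey) and 3 light pulse arrays (orange). The vertical axis runs from 60 to 100 percent of all probe sets on the array. Complex IV lies between 96.0 and 96.9. The complex I assembly factors, here only those named Ndufaf, lie lower on the 3 light pulse arrays (68.0 to 71.4) than on the 3 sham arrays (72.3 to 78.6).

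Probe sets differ in how strongly they bind their targets, so these ranks describe the array and are no measure of molecules. When each gene was read from its brightest probe set, the order on all 6 arrays was IV (98.8 to 99.0), I (97.5 to 98.0), V (96.5 to 97.1), III (90.5 to 92.8) and II (81.6 to 87.7). The place of complex II rests on the dim probe sets of Sdhc and Sdhd, the membrane anchors. Endings _a_at, _s_at and _x_at mark probe sets that several transcripts or similar sequences share. Over the probe sets without such a suffix, its median percentile was 96.0, above the 92.8 of complex IV. The stricter filter, which leaves complex II with Sdha and Sdhb alone, placed it at 97.4, level with complex IV.

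No member differed between the groups by the test used. With limma and Benjamini-Hochberg adjustment over all probe sets tested, 0 of 140 had an adjusted p below 0.05, and the adjusted p-values of the members ran from 0.960 to 1.0. The background was small, since 7 of all probe sets tested (0.0677%) passed. At an unadjusted p below 0.05, 3 members were higher after the light pulse (Ndufa13, Cox6b1 and Uqcrb, against a background of 2.11%) and 2 were lower (Ndufs8 and Ndufa5, against 2.21%). A Bayesian test of the kind the study used (Cyber-T) also called 0 members. The log2 fold changes of the members, light pulse over sham, lay between -0.99 and 0.58, and none reached 2-fold, a size that 5.19% of all kept probe sets passed. That share depended on signal. It was 7.25% of all kept probe sets with a mean signal below 1000, 0.412% between 1000 and 10000 and 0.446% at 10000 or more. Of the members, 40, 61 and 39 lay in these ranges. The median standard error of a member's log2 fold change was 0.27, so changes of the size seen among most members could not be told from 0 with 3 arrays a group.

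The complexes differed little from all kept probe sets in their median fold change. The median log2 fold change was 0.06 over the 140 members, with 87 of them (62.1%) above 0, beside a median of 0.00 and 50.1% above 0 for all kept probe sets. By complex the medians were 0.07 for I, -0.13 for II, 0.07 for III, 0.08 for IV and 0.16 for V. The within-group standard deviation of a complex's median per array was 0.05 for I, 0.14 for II, 0.15 for III, 0.14 for IV and 0.10 for V. The medians of II and V moved by more than this spread when 1 array was left out, and those of I, III and IV by less. Leaving out 1 array at a time gave 0.029 to 0.10 for I (lowest without sham array 3), -0.22 to 0.018 for II (highest without light pulse array 1), -0.029 to 0.20 for III (lowest without sham array 2, highest without light pulse array 3), 0.040 to 0.15 for IV and 0.0087 to 0.21 for V (lowest without sham array 2, and 0.043 without light pulse array 2). Quantile normalization gave 0.013 for I, a move beyond the spread. It gave -0.23 for II, 0.082 for III, 0.0051 for IV and 0.145 for V, all within the spread. No difference between complexes was tested. The ribosomal proteins had a median of 0.13 and the proteasome subunits of -0.14, both with 0 called. The sign of the members' median depended on the type of probe set, being -0.06 over the 59 with no suffix, 0.11 over 38 ending in _a_at, 0.04 over 17 ending in _s_at and 0.14 over 26 ending in _x_at. The members' median was 0.010 without sham array 2, 0.10 without sham array 1 and 0.095 without light pulse array 3, and it was 0.0098 after quantile normalization, which gives all arrays the same distribution of signals.

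**Figure D2:**
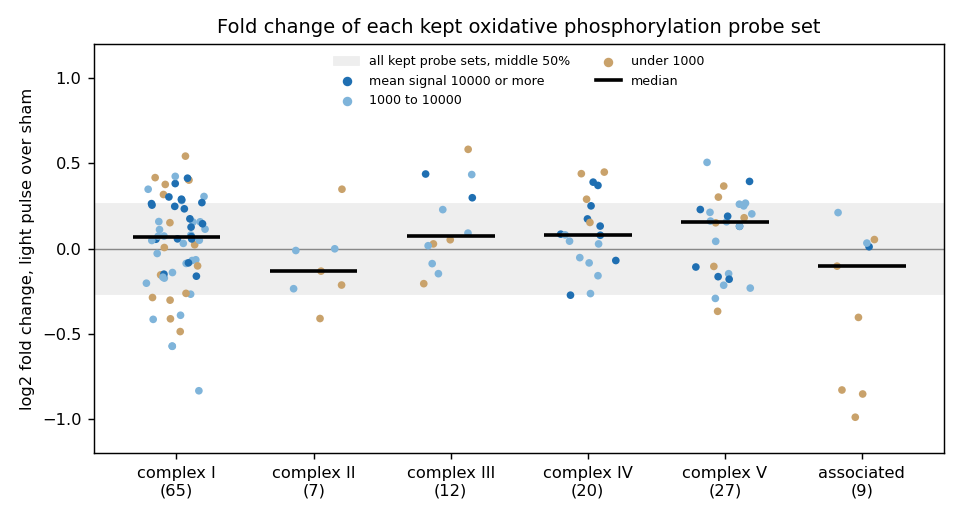
Log2 fold change, light pulse over sham light pulse, of each of the 140 kept probe sets (points) by complex, with the number of probe sets in brackets, coloured by mean signal over the 6 arrays. Black bars are medians (0.07, -0.13, 0.07, 0.08, 0.16 and -0.10 from left to right) and the grey band holds the middle 50% of all kept probe sets. No member passed the test, and the 3 lowest of the associated factors are Ndufaf3, Ndufaf7 and Ndufaf5.

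Complex I gave the largest number of members. Its core holds the flavin and iron-sulfur clusters that carry electrons from NADH, and a larger number of accessory subunits surrounds that core. Among the accessory subunits, Ndufa13 had the highest signal: 37832, 37624 and 29595 for the sham arrays, against 50076, 38079 and 48866 for the light pulse arrays. The lowest light pulse value, on array 2, was just above the highest sham value, so the groups did not overlap, and the log2 fold change was 0.38 ± 0.17 (SE, n = 3 arrays a group; 95% interval 0.01 to 0.76). Ndufb11, an accessory subunit of the membrane arm, read 26774, 31857 and 20174 for the sham arrays, against 30959, 26915 and 37444 for the light pulse arrays. Ndufc2, another membrane arm subunit, read 26192, 25772 and 17498 for the sham arrays, against 25575, 29326 and 37199.7 for the light pulse arrays. In both genes light pulse array 3 was the highest of the 6 and sham array 3 the lowest, the groups overlapped, and the log2 fold changes were 0.29 ± 0.20 and 0.41 ± 0.21. Without light pulse array 3 these were 0.16 and 0.27, and that of Ndufa13 was 0.33. Without sham array 3 the values were 0.11 for Ndufb11, 0.22 for Ndufc2 and 0.265 for Ndufa13.

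Ndufa12, an accessory subunit of the matrix arm, was read by 3 kept probe sets. The brightest gave 22665, 17382 and 19649.8 for the sham arrays, against 24199, 24968 and 23430.3 for the light pulse arrays, and a second gave 19519.5, 16101 and 17345 for the sham arrays, against 21711, 20669 and 20665 for the light pulse arrays. The light pulse arrays stood above the sham arrays in both, by 0.29 ± 0.17 and 0.26 ± 0.17 on the log2 scale. The third, at a far lower signal, overlapped between groups, at a log2 fold change of -0.14 ± 0.26.

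Ndufs7, a core iron-sulfur subunit, read 6731, 6313 and 5334 for the sham arrays, against 7039.5, 8999 and 8639.9 for the light pulse arrays, with the light pulse arrays above the sham arrays and a log2 fold change of 0.42 ± 0.21. Its other probe set overlapped between groups at the same log2 fold change, 0.42 ± 0.29. Ndufs8, the core iron-sulfur subunit next to it in the chain of clusters, ran the other way on 1 probe set, with 7943, 5812 and 8467 for the sham arrays, against 7652, 3929.6 and 2301 for the light pulse arrays. There light pulse arrays 2 and 3 were the lowest of the 6, light pulse array 1 lay among the sham arrays, and the log2 fold change was -0.83 ± 0.35 (95% interval -1.59 to -0.07), or -0.415 without light pulse array 3. The brightest probe set of Ndufs8 read 23407, 20565 and 19348 for the sham arrays, against 29054, 18029 and 14964 for the light pulse arrays. Its log2 fold change was -0.08 ± 0.23, with light pulse array 1 the highest of the 6 and light pulse array 3 the lowest. All 6 kept probe sets of this gene had values below 0, but these read the same pools. The sign of the brightest depended on light pulse array 3. Ndufs1, the largest iron-sulfur subunit of the NADH-oxidising module, read 775, 1614 and 1269.7 for the sham arrays, against 824, 580.3 and 1012 for the light pulse arrays, and its groups overlapped at a log2 fold change of -0.57 ± 0.34.

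The subunits at the site of NADH oxidation gave small differences. Ndufv1, which binds the flavin, had a log2 fold change of 0.03 ± 0.23 by its brightest probe set. Ndufv2, its iron-sulfur partner, read 18204, 17486 and 14675 for the sham arrays, against 17546, 17282 and 17840.4 for the light pulse arrays by its brightest probe set, and the groups overlapped. A dimmer probe set of Ndufv2 read 2906, 3609 and 2931 for the sham arrays, against 2066, 2341 and 2825 for the light pulse arrays, with the light pulse arrays below the sham arrays and a log2 fold change of -0.39 ± 0.25. Ndufv3, an accessory subunit of this module, read 16021, 15439 and 12269.5 for the sham arrays, against 18594, 16873 and 16968 for the light pulse arrays without overlap, at 0.27 ± 0.19. Taking the brightest probe set of each gene, 26 of the 34 complex I genes had a log2 fold change above 0, between -0.57 and 0.42, with a median of 0.12.

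Complex II has 4 subunits, all nuclear, and also serves in the tricarboxylic acid cycle. Sdha, the flavoprotein that oxidises succinate, read 9099.5, 6531 and 8959.9 for the sham arrays, against 7735, 8705 and 7735 for the light pulse arrays, and its log2 fold change was -0.01 ± 0.21 (95% interval -0.47 to 0.45). Sdhb, the iron-sulfur subunit, read 9078, 7735 and 8095 for the sham arrays, against 7207, 8332 and 5812 for the light pulse arrays, at -0.23 ± 0.21. Sdhc, a membrane anchor, was far dimmer at 291, 456 and 451 for the sham arrays, against 183, 476 and 441 for the light pulse arrays. Both probe sets of Sdhd, the other anchor, lay between 218 and 393, with log2 fold changes of -0.41 ± 0.35 and 0.35 ± 0.34. The groups overlapped for all 7 probe sets of the complex, and the brightest probe sets of all 4 genes had values below 0. For Sdhd that choice was nearly a tie, at mean signals of 302 and 298, and the second probe set had the value above 0. The sign was not stable for Sdha, which reached 0.073 without sham array 1, or for Sdhc, which reached 0.23 without light pulse array 1.

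In complex III, Uqcrb, a small subunit near the ubiquinone site, had the highest signal of any member, at 64063, 55167 and 42664 for the sham arrays, against 66389, 63496 and 88891 for the light pulse arrays. Light pulse array 3 stood far above the rest and sham array 3 far below, light pulse array 2 lay just under sham array 1, and the log2 fold change was 0.44 ± 0.18, or 0.29 without light pulse array 3 and 0.28 without sham array 3. Its other probe set read 1099.7, 1274 and 1163 for the sham arrays, against 883, 1262 and 1218 for the light pulse arrays, at a log2 fold change of -0.09 ± 0.27. Uqcrc2, a core protein on the matrix side, read 24690.2, 20869.9 and 17509 for the sham arrays, against 23627, 23774 and 29891 for the light pulse arrays, and Uqcr11, a small subunit, read 6612, 3965 and 6683 for the sham arrays, against 7977, 7902 and 4476 for the light pulse arrays. Both overlapped between groups, at 0.30 ± 0.19 and 0.23 ± 0.29. Uqcrq, another small subunit, read 2103, 2089.5 and 2410.1 for the sham arrays, against 2955, 3164 and 2797 for the light pulse arrays, so that the light pulse arrays were above the sham arrays, at a log2 fold change of 0.43 ± 0.24. The Rieske iron-sulfur protein Uqcrfs1 read 1354, 2295 and 2375 for the sham arrays, against 1814, 1810.1 and 1657 for the light pulse arrays, at -0.15 ± 0.28. By the brightest probe set, 7 of the 8 genes had values above 0.

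Complex IV was represented by its nuclear subunits, which surround a catalytic core made in the mitochondrion. Cox6a1 read 34471, 34203 and 25137 for the sham arrays, against 38719, 34153 and 50441 for the light pulse arrays, and light pulse array 2 fell within the sham range. Cox6b1, which faces the intermembrane space, read 30566, 27997 and 24837 for the sham arrays, against 35242, 33218 and 39268 for the light pulse arrays, with each light pulse array above each sham array. The log2 fold changes were 0.39 ± 0.19 for Cox6a1 and 0.37 ± 0.16 for Cox6b1, and 0.23 and 0.30 without light pulse array 3 or 0.24 and 0.29 without sham array 3. Cox7a2 read 31343, 22528 and 19988 for the sham arrays, against 32931, 22348 and 27566 for the light pulse arrays, with wide overlap of the groups and a log2 fold change of 0.17 ± 0.21. Cox4i1 read 16895, 13581 and 16163 for the sham arrays, against 19201, 16804 and 9953 for the light pulse arrays, where light pulse array 3 was the lowest of the 6 and light pulse array 1 the highest, and the log2 fold change was -0.07 ± 0.24, or 0.21 without light pulse array 3. By the brightest probe set, 9 of 10 kept genes had values above 0, with a median of 0.21.

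The ATP synthase consists of the catalytic F1 part and the membrane part with its ring of c subunits. Atp5d, a subunit of the central stalk, read 16496, 12320.0 and 12512 for the sham arrays, against 19745, 19168 and 15255 for the light pulse arrays, at a log2 fold change of 0.39 ± 0.20. Atp5h, in the peripheral stalk, read 23989, 22238 and 20007 for the sham arrays, against 25708, 25994 and 23723 for the light pulse arrays, and Atp5j2, in the membrane, read 17842, 13262 and 13502 for the sham arrays, against 18056, 18224 and 12755 for the light pulse arrays. Their log2 fold changes were 0.19 ± 0.17 and 0.13 ± 0.21, and all 3 genes overlapped between groups. In F1, the brightest probe set of Atp5a1, the alpha subunit, read 14309, 14077 and 13366 for the sham arrays, against 12011, 13819 and 12976 for the light pulse arrays, at -0.11 ± 0.18, and Atp5b, the beta subunit that bears the catalytic sites, read 1835, 972 and 2184 for the sham arrays, against 1528, 2447 and 1793 for the light pulse arrays, at 0.26 ± 0.33. Atp5k, a membrane subunit at the dimer interface, had 1 probe set of 3 with the light pulse arrays above (2029, 1764 and 1747 for the sham arrays, against 2451, 2082 and 2066 for the light pulse arrays). Atp5o, which joins the peripheral stalk to F1, had 1 of 2 with them below (1359.6, 1249 and 1204 for the sham arrays, against 1101, 1199 and 846 for the light pulse arrays). By the brightest probe set, 11 of 17 genes had values above 0.

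**Figure D3:**
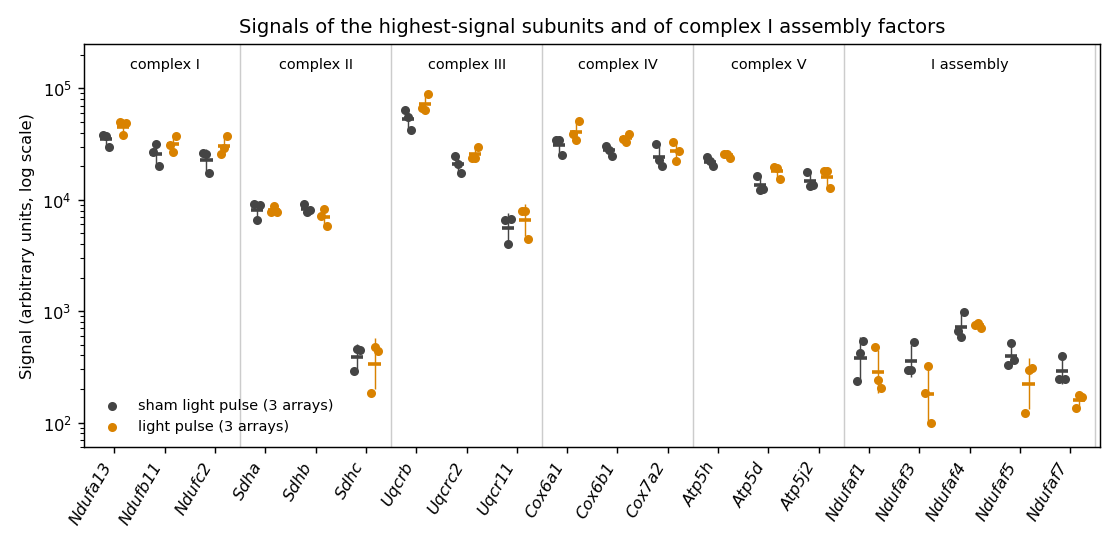
Signal on each array (points, log scale) of the 3 highest-signal genes of each complex and of the 5 complex I assembly factors named Ndufaf, for sham light pulse (grey, 3 arrays) and light pulse (orange, 3 arrays). Horizontal bars are geometric means and vertical lines span 1 standard deviation of the log2 signals on either side. Uqcrb has the highest signals, and the groups overlap in all these genes except Ndufa13, Cox6b1, Ndufaf5 and Ndufaf7.

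The assembly factors of complex I that are named Ndufaf were dim, and 5 of their 6 kept probe sets had log2 fold changes below 0, with 0 called. Assembly factors of the chain under other names, listed further below, had a median of 0.08, with 20 of 33 kept probe sets above 0. These proteins help to build the complex and are no part of the finished enzyme. Ndufaf3 read 294, 299 and 524 for the sham arrays, against 186, 320.3 and 99.1 for the light pulse arrays, with light pulse array 2 above 2 of the sham arrays. Ndufaf5 read 327, 522 and 361 for the sham arrays, against 121, 294 and 308 for the light pulse arrays, and Ndufaf7 read 246, 392 and 247 for the sham arrays, against 135, 177 and 171 for the light pulse arrays. The light pulse arrays of Ndufaf5 and Ndufaf7 lay below all sham arrays, 2 of the 6 probe sets, against 4.46% of all kept probe sets. The log2 fold changes were -0.99 ± 0.46, -0.83 ± 0.42 and -0.85 ± 0.40 for the 3 genes, with an adjusted p of 0.960 by limma for each. Without light pulse array 3 they were -0.55, -1.06 and -0.90. Ndufaf1 (-0.40 ± 0.42) and the brighter probe set of Ndufaf4 (0.05 ± 0.30) overlapped between groups. The median over the 6 probe sets was -0.62, and the group medians of percentile were 72.3 to 78.6 on the sham arrays and 68.0 to 71.4 on the light pulse arrays. Signals this low vary more, and the within-group standard deviation of log2 signal had a median of 0.41 for members below 1000 against 0.21 for those at 10000 or more. Cox7a2l, far brighter at 12667 to 15790.0, had a log2 fold change of 0.01 ± 0.19.

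Altogether 9 members (6.43% of 140) had the light pulse arrays all above the sham arrays, against 5.62% of all kept probe sets, and 4 (2.86%) had them all below, against 4.46%. The 9 were both probe sets of Ndufa12 given above and 1 each of Ndufa13, Ndufa7, Ndufs7, Ndufv3, Uqcrq, Cox6b1 and Atp5k, and the 4 were 1 each of Ndufv2, Atp5o, Ndufaf5 and Ndufaf7. Both shares were near the background. Without light pulse array 3 the counts were 20 (14.3%) and 6 (4.29%), against 11.0% and 9.51%. Only 1 probe set in each direction remained among the 59 without a suffix.

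The brightest members leaned above 0, and so did the brightest probe sets of any kind. Among the 39 members with a mean signal of 10000 or more, the median log2 fold change was 0.17 and 31 (79.5%) were above 0. Over all 448 kept probe sets of that brightness the median was also 0.17, with 83.9% above 0. Sham array 3 was low in this range, its median deviation from the probe set mean being -0.24 for members and -0.26 for all. Without sham array 3 the medians were 0.09 and 0.08, and after quantile normalization of the arrays they were -0.02 and -0.01, with 19 of the 39 members above 0. Members between 1000 and 10000 had a median of 0.03 and those below 1000 also 0.03.

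**Figure D4:**
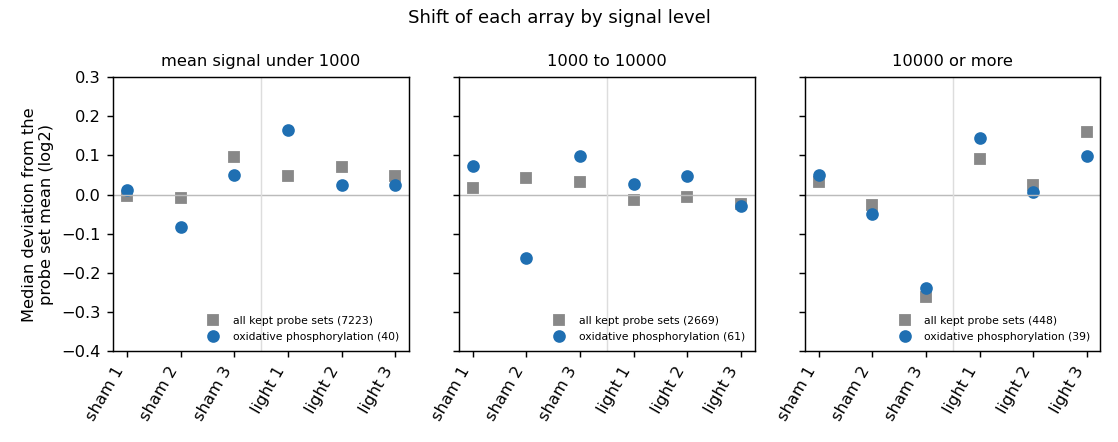
Median deviation of log2 signal from the probe set's own mean over the 6 arrays, for each array (horizontal axis), in 3 ranges of mean signal, for the kept members (blue circles) and all kept probe sets (grey squares), with the number of probe sets in brackets. In the range of 10000 or more, sham array 3 is lowest for members (-0.24) and for all kept probe sets (-0.26).

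Most of the highest-signal genes named above had the same pattern. Uqcrb, Uqcrc2, Ndufb11, Ndufc2, Ndufa13, Cox6a1, Cox6b1, Cox7a2 and Atp5h each had their lowest value on sham array 3. After quantile normalization the log2 fold changes of Uqcrb (-0.054), Cox7a2 (-0.077) and Atp5h (-0.016) changed sign. Those of Ndufb11, Ndufa13, Cox6b1 and Cox6a1, printed above as 0.29 to 0.39, were then 0.0025, 0.070, 0.067 and 0.072, and those of Ndufc2 and Uqcrc2 were 0.17 and 0.10.

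Several complex IV subunits exist as alternative isoforms from separate genes. Most widespread forms were bright, and forms known mainly from heart and skeletal muscle, lung or testis were dim. Cox6a2 and Cox7a1, the forms of heart and skeletal muscle, read 52.7 to 137 and 2.7 to 189 over the 6 arrays, whereas the brightest probe sets of Cox6a1 and Cox7a2 read 25137 to 50441 and 19988 to 32931. Cox8b, another muscle form, read 5.8 to 34.9 and Cox4i2, a form of lung, read 37.3 to 80.7. Cox6b2, a testis form, read 6.7 to 64.1. None of these 5 passed the filter. Cox8c, the testis form of subunit 8, did pass, at 105, 138 and 173 for the sham arrays, against 189, 119.5 and 276 for the light pulse arrays, and its groups overlapped at a log2 fold change of 0.44 ± 0.50. The widespread Cox8a was itself moderate, at 608 to 1271. Without present calls in the table used, a low signal could not be set against background. The 3 genes Atp5g1, Atp5g2 and Atp5g3 encode the same mature c subunit of the ATP synthase, and their probe sets read 767 to 1195, 763 to 1425 and 11583 to 16008. Their log2 fold changes were 0.15 ± 0.29, -0.21 ± 0.33 and 0.23 ± 0.19. Ndufa4, named for complex I and now regarded as a subunit of complex IV, read 773 to 1225, at 0.15 ± 0.29.

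**Figure D5:**
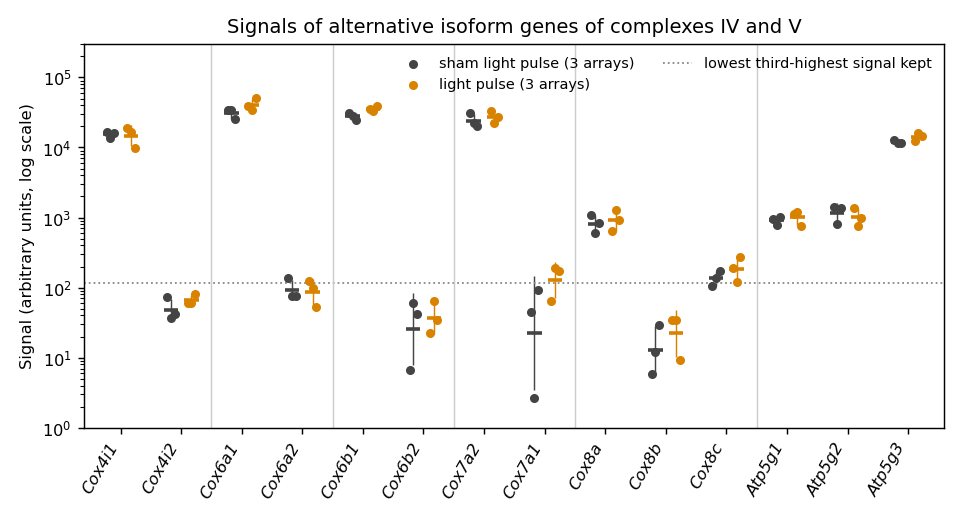
Signal on each array (points, log scale) of alternative isoform genes of complexes IV and V, by the brightest probe set of each gene, for sham light pulse (grey, 3 arrays) and light pulse (orange, 3 arrays). Bars are geometric means, vertical lines span 1 standard deviation of log2 signal either way, and the dotted line marks 118.2, the lowest third-highest signal that was kept. Cox4i2, Cox6a2, Cox6b2, Cox7a1 and Cox8b fall below it by that measure.

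Probe sets of the same gene often differed. For the 42 genes with at least 2 kept probe sets, the brightest exceeded the dimmest by a median of 7.51-fold, and by up to 190-fold for Ndufs8. The log2 fold changes differed in sign within 20 of the 42 genes. In 6 of them (Atp5a1, Cox6a1, Ndufa5, Sdhd, Uqcr10 and Uqcrb) they also lay more than 0.5 apart. Ndufa5, an accessory subunit of complex I, read 14762, 16654 and 14688 for the sham arrays, against 15088, 15969 and 16895 for the light pulse arrays on its brightest probe set, at a log2 fold change of 0.06 ± 0.18. Its other probe set, 3441, 2351 and 3594 for the sham arrays, against 2392, 1746 and 2119 for the light pulse arrays, gave -0.57 ± 0.26, and light pulse array 1 lay just above sham array 2 there. For Atp5a1, a dimmer probe set gave 0.51 ± 0.31, against -0.11 ± 0.18 for the brightest. Uqcr10, a small subunit of complex III, had 3 probe sets at 0.09 ± 0.27, 0.58 ± 0.37 and -0.20 ± 0.49. Cox6a1 gave -0.16 ± 0.27 on its dimmer probe set, opposite in sign to the value above.

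Genes that work beside the complexes showed 0 calls by limma in each list. The mitochondrially encoded complex I subunit ND5, the only gene of the mitochondrial genome with a probe set of a single symbol here, read 15985, 13062 and 14693 for the sham arrays, against 13756, 12444 and 14502 for the light pulse arrays, at -0.10 ± 0.19. Electron carriers, ADP/ATP and phosphate carriers and porins had 27 of 30 probe sets kept and a median log2 fold change of 0.10. Slc25a4, the ADP/ATP carrier, gave 0.12 ± 0.18, and Vdac1, the outer membrane porin, 0.30 ± 0.23. Assembly factors of the chain had 33 of 41 kept and a median of 0.08, with Cox17, a copper chaperone for complex IV, at 0.05 ± 0.26 and Uqcc2, an assembly factor of complex III, at 0.09 ± 0.24. The tricarboxylic acid cycle and pyruvate dehydrogenase had 25 of 29 kept and a median of -0.04, with Mdh2 (malate dehydrogenase) at 0.25 ± 0.18 and Idh3g (a subunit of isocitrate dehydrogenase) at 0.03 ± 0.20. Glycolysis had 25 of 27 kept and a median of -0.03, with Pgk1, phosphoglycerate kinase, at 0.38 ± 0.22 and Ldhb, a lactate dehydrogenase subunit, at 0.19 ± 0.19. Regulators of mitochondrial gene expression had 18 of 28 kept, from 11 genes, and a median of -0.35. Of the 18 probe sets, 6 were above 0 and 3 were lower at an unadjusted p below 0.05 by limma, against 2.21% of all kept probe sets. Several of the 18 read the same gene. By the brightest probe set of each gene, only Ppargc1a was lower at that level (unadjusted p 0.038 by limma). The brightest regulators were the transcription factor Yy1 (0.06 ± 0.27) and the mitochondrial deacetylase Sirt3 (0.19 ± 0.30).

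Promoters of these genes are known for sites of NRF1, of ETS factors such as GABPA and of YY1, and light reaches SCN genes in part through CREB at the cAMP response element (CRE). RefSeq promoter sequence (GRCm38.p6, from 250 bases before to 50 after the start) was matched for 70 of the 84 genes and searched on both strands for exact letters. A gene was counted when any of its promoters held the letters. The NRF1 letters GCGCATGCG occurred in 9 of the 70 (12.9%), against 1.95% of all genes with promoter sequence and 4.87% of those with a kept probe set. The ETS letters CCGGAAG occurred in 18 (25.7%), against 9.93% and 22.2%, and the YY1 letters AAGATGGCG in 6 (8.57%), against 1.64% and 4.11%. The full CRE, TGACGTCA, occurred in 3 (4.29%), namely Ndufa10, Ndufb2 and Uqcrfs1, against 2.03% and 3.81%. The log2 fold changes of these 3 lay between -0.15 and 0.35, and those of the 9 with the NRF1 letters between -0.83 and 0.39. A match describes the sequence and is not a binding site shown here. The windows below are all upstream of the start, are given 5′ to 3′ on the strand of the gene, and carry the matched letters in capitals, with overlapping matches on both strands joined. The first pair shows the NRF1 letters in a gene of complex IV and a gene of complex V, the second pair the ETS letters of Cox6b1 and the YY1 letters of Atp5j, and the last pair the CRE.
Cox6a1, strand minus, chr5:115349091-115349140: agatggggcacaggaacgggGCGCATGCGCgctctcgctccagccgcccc
Atp5k, strand minus, chr5:108434420-108434469: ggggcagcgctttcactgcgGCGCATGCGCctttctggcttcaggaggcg
Cox6b1, strand minus, chr7:30626116-30626162: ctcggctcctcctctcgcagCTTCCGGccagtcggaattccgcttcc
Atp5j, strand minus, chr16:84835036-84835084: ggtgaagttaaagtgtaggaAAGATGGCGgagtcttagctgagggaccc
Uqcrfs1, strand minus, chr13:30545318-30545365: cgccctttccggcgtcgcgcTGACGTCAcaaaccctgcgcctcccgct
Ndufa10, strand minus, chr1:92473798-92473845: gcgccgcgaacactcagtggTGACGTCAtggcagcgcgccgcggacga
In the table of signals these genes gave log2 fold changes of 0.39 ± 0.19 for Cox6a1, 0.27 ± 0.21 for Atp5k, 0.37 ± 0.16 for Cox6b1, -0.15 ± 0.21 for Atp5j, -0.15 ± 0.28 for Uqcrfs1 and -0.15 ± 0.32 for Ndufa10, each by its brightest probe set. The genes with and without a CRE were not compared by a test.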

How the data were processed

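RNA of laser-captured SCN was measured on 6 arrays, 3 light pulse and 3 sham light pulse, grouped by the sample labels. The deposited values are signal intensity on a linear scale, which the authors computed per probe set with Affymetrix GCOS software; the submitters' notes name MAS5 and give no version. Present calls were not used here. Symbols came from the platform's annotation, and all 84 member genes matched a current gene table by Entrez identifier with 0 changed symbols. Of the 22626 probe sets, 20380 had a single symbol, 691 several and 1555 none.

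The log2 signal, with no offset, was compared with limma 3.58.1 in R 4.3.3 (two-sided, intensity trend in eBayes, p-values adjusted by Benjamini-Hochberg, threshold 0.05) over the 10340 probe sets with the highest third-ranked signal. A stricter filter kept 5000. Cyber-T was rewritten (window 101, weight 10). On simulated data for this comparison, limma recovered 36% of 2-fold and 100% of 4-fold changes among 10340 probe sets, with 6 false calls. The simulated noise was normal, and its spread was the same for all probe sets of equal signal. A real probe set with a wider spread can therefore be missed at larger changes. Ttr, at a log2 fold change of 2.92 ± 1.86, had an adjusted p of 0.960 by limma. Arrays have no read depth, so their number limits the precision.

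Members named are, for each complex, the 3 genes of highest signal, the 5 members of smallest p in each direction, isoform pairs, genes whose probe sets disagree, associated factors, and the 2 brightest genes of each other list. Ndufa12, Ndufa7, Ndufs1, Ndufs7, Ndufv1, Ndufv2, Ndufv3, Uqcrq, Uqcrfs1, Atp5b, Atp5k, Atp5o, Atp5j and Ndufa10 were added after their values were seen, for their role, their separated groups or their promoter. The members and lists were chosen with earlier results of these data known. Alternatives were other filters, normalizations, tests, probe set choices, a replicate block and leaving out each array. Replicate numbers were not treated as pairs. The correlations of deviations between arrays of the same number were 0.10, -0.19 and -0.13, and those of different numbers ran from -0.11 to 0.20. Deviations from the mean of 3 arrays cannot show whether arrays of the 2 groups were processed together.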

Additional observations from a re-analysis of the deposited data

How the results depend on the processing

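The count of 0 members called held under all 16 fitted alternatives, where the lowest adjusted p of a member was 0.595, and among subunits alone. Over all probe sets the count of 7 fell to 4 without the intensity trend. A fit with the replicate block, although nothing read here says that equal numbers pair arrays, called 0 members and 6 probe sets in all. It left the member median at 0.064. Of 611 values of named probe sets under alternatives, 586 kept their direction and none crossed the threshold.

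Without probe sets of shared sequence the median log2 fold change was -0.065 over the members, -0.069 for complex I and -0.087 for complex III, the light pulse arrays were all above in 1 and all below in 1, and the percentiles were 88.1, 96.0, 87.7, 92.8 and 89.4 for complexes I to V. With 1 probe set per gene these were 97.7, 87.0, 92.5, 98.9 and 96.6. The stricter filter gave 94.6, 97.4, 92.1 and 97.4 for I to IV and 2 members all below, and no filter gave 87.1 for III and 91.7 for IV. Subunits alone had 2 all below. Quantile normalization took the member median to 0.0098, complex I to 0.013 and complex IV to 0.0051. Complexes II, III and V were then at -0.23, 0.082 and 0.145. The same normalization took Ndufb11 to 0.0025, Ndufa13 to 0.070, Cox6a1 to 0.072, Cox6b1 to 0.067, Uqcrb to -0.054, Cox7a2 to -0.077, Atp5h to -0.016, the brightest Ndufa5 probe set to -0.094 and Cox7a2l to -0.13. The causes of these shifts were not tested.

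Leaving out 1 array at a time gave 13 to 23 members all above and 6 to 16 all below, with 10.1% to 11.3% and 7.81% to 10.6% of all kept probe sets, because fewer arrays separate more easily. Medians then ran from 0.010 to 0.10 for all members, 0.029 to 0.10 for complex I, -0.029 to 0.20 for III, 0.040 to 0.15 for IV, -0.22 to 0.018 for II (0.018 without light pulse array 1) and from 0.0087 to 0.21 for V (0.0087 without sham array 2, 0.043 without light pulse array 2). Log2 fold changes ran from -0.17 to 0.073 for Sdha, -0.46 to 0.23 for Sdhc, -0.019 to 0.50 for Uqcr11, -0.26 to 0.21 for Cox4i1, -0.085 to 0.41 for Cox8a, -0.41 to 0.039 for the dimmer Cox6a1 probe set, -0.036 to 0.19 and -0.59 to 0.069 for 2 Uqcr10 probe sets, -0.18 to 0.076 for the dimmer Uqcrb, -0.049 to 0.097 for Cox7a2l and -0.099 to 0.27 for Ndufaf4.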

Other observations

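Among the regulators of mitochondrial gene expression, Ppargc1a, a coactivator that drives mitochondrial genes in other tissues, read 609, 697 and 944 for the sham arrays, against 659, 396 and 281 for the light pulse arrays and was chosen after its values were seen. Light pulse arrays 2 and 3 were the lowest of the 6, light pulse array 1 lay within the sham range, and the log2 fold change was -0.82 ± 0.36 (adjusted p 0.960 by limma). Tfam, which maintains the mitochondrial genome, read 704, 1126 and 639 for the sham arrays, against 632, 719.5 and 471 for the light pulse arrays, at -0.42 ± 0.32, also chosen after its values were seen. Other regulators in the list lay above 0 by their brightest probe set. Esrra gave 1.22 ± 0.83, with a signal of only 16.7 on sham array 1, and Polrmt gave 0.11 ± 0.27. Over the list, 6 of 18 kept probe sets were above 0. The summed signal of 7 endothelial markers, of which 3 passed the filter, was 3189 to 4044 on the sham arrays and 2321 to 3216 on the light pulse arrays. Sums of other cell types also varied between arrays. On the sham and light pulse arrays they were 28891 to 54216 and 36935 to 51628 for oligodendrocyte markers. They were 9150 to 11877 and 7668 to 10678 for microglia markers, and 22689 to 31071 and 23463 to 31121 for astrocyte markers. The part of these cell types in the members' values was not tested.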
